A study of Homo sapiens with 4 samples.

Results

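The genes described here are the small nucleolar RNA host genes of H1944 cells, taken as every gene of the count tables whose symbol is SNHG followed by a number, together with GAS5. The rule found 29 genes, GAS5 and 28 SNHG genes, among 46427 rows. H1944 is a human lung cancer cell line grown in culture. It was given BAY1217389, an inhibitor of the mitotic checkpoint kinase MPS1 (also called TTK), or the vehicle DMSO for 48 h, and RNA was taken 24 h after the medium was exchanged. Each of the BAY1217389 and DMSO groups had 2 biological replicates, the 4 libraries were poly(A)-selected, and the purpose stated for the series was to look for negative regulators of the STING pathway. All libraries come from a single cell line, for which the labels name no genetic alteration.

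Small nucleolar RNAs (snoRNAs) are short RNAs that guide the chemical modification of ribosomal RNA. Box C/D snoRNAs guide methylation of ribose, and box H/ACA snoRNAs guide the conversion of uridine to pseudouridine. Most human snoRNAs are cut out of the introns of a longer host transcript after splicing. In the SNHG genes and GAS5 the host's exons mostly encode no protein, and the spliced exon RNA is what poly(A) selection recovers. Several of these hosts begin with a terminal oligopyrimidine tract (TOP), a C followed by a run of C and T that is also found at the start of ribosomal protein genes. Spliced GAS5 and several other hosts are known to be destroyed by nonsense-mediated decay, which acts on some of the RNAs that ribosomes translate.

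By position in RefSeq, 27 of the 29 genes spanned at least 1 annotated snoRNA or the related Cajal body RNA (scaRNA), 142 in all. SNHG27 and SNHG28 spanned none. Of the 142 small RNAs, 118 were box C/D, 20 were box H/ACA and 4 were scaRNAs, and 83 of them lay in SNHG14, the long imprinted transcript of the Prader-Willi region. Outside SNHG14, GAS5 held 11 and SNHG1 held 8. The RNAs below are shown because they are the products of 3 of the most highly expressed hosts, from GENCODE release 29 on GRCh38. SNORD49A lies in SNHG29 at chr17:16440036-16440106 on the plus strand, SNORD50B in SNHG5 at chr6:85677589-85677658 on the minus strand, and SNORA24 in SNHG8 at chr4:118279190-118279320 on the plus strand. Capitals mark the box C motif TGATGA and the box D motif CTGA in the box C/D RNAs, and the ACA box in SNORA24.
SNORD49A: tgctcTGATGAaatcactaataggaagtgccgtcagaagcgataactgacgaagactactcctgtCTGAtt
SNORD50B: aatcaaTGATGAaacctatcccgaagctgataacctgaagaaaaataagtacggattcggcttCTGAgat
SNORA24: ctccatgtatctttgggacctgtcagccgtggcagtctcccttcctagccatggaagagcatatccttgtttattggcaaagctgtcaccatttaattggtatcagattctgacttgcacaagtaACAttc

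The libraries held 43661342 and 43067647 reads in the BAY1217389 group and 39332931 and 38904473 reads in the DMSO group. TTK, the gene of the inhibited kinase, had 12.1 and 11.5 CPM with BAY1217389 and 19.4 and 19.2 CPM with DMSO. CPM are counts per 1000000 reads of the effective library size, which is the total scaled by the TMM factor. Of 6 epithelial markers 5 were expressed and KRT19 had 0 reads. Their summed level was 4792 to 4952 CPM with BAY1217389 and 4127 to 4135 CPM with DMSO. Among 5 lung alveolar markers, NKX2-1, SFTPB and SFTPA1 had 0 reads, and the list summed to 0.795 to 0.873 CPM with BAY1217389 and 0.660 to 0.715 CPM with DMSO. Among 5 immune markers the leukocyte gene PTPRC had 0 reads, while the list summed to 163 to 167 CPM with BAY1217389 and 70.9 to 73.7 CPM with DMSO, nearly all of it CD68. The 5 fibroblast and endothelial markers summed to 28.7 to 30.3 CPM with BAY1217389 and 19.7 to 20.9 CPM with DMSO. The part of these marker differences in the results was not tested.

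The host genes as a group took a smaller share of the library after BAY1217389. Their reads summed to 60918 and 58693 in the BAY1217389 libraries, against 67653 and 66999 in the DMSO libraries, although the BAY1217389 libraries were the deeper ones. As a share of all reads that was 0.1395% and 0.1363% with BAY1217389 and 0.172% and 0.1722% with DMSO. The groups did not overlap. The summed level was 1385 ± 19 CPM with BAY1217389 and 1715 ± 4.24 CPM with DMSO (SD, n = 2 each), a difference of -0.31 on the log2 scale. In bulk RNA, less of a transcript per cell and a change in the mix of cells cannot be told apart.

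Most of these reads came from few genes. SNHG29, a host of 3 box C/D snoRNAs on chromosome 17, alone held 38.04% and 37.49% of the host reads with BAY1217389 and 39.97% and 39.9% with DMSO. It accounted for 49.1% of the summed fall in CPM, and SNHG7 for 11.3%. Without SNHG29 the summed level was 862.1 ± 6.41 CPM with BAY1217389 and 1030 ± 1.7 CPM with DMSO (SD, n = 2 each), a log2 difference of -0.26. SNHG29, SNHG5, GAS5, SNHG6 and SNHG16 together made up 71.6% to 72.64% of host reads in the 4 libraries.

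**Figure D1:**
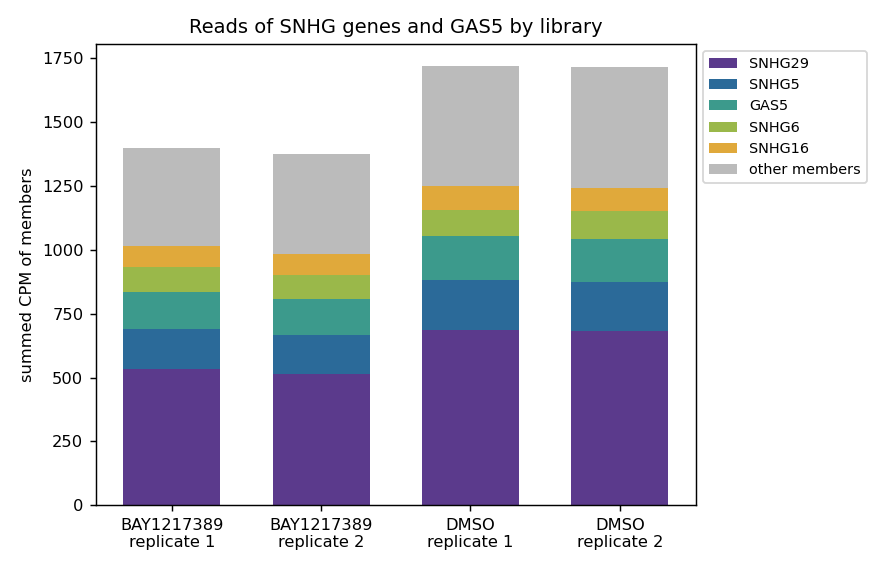
Stacked bars give the summed level in CPM of the 29 host genes in each of the 4 libraries, with the 5 genes of most reads in colour and the rest in grey. The BAY1217389 bars reach 1398.7 and 1371.8 CPM and the DMSO bars 1717.9 and 1711.9 CPM, and SNHG29 is the largest block in every bar.

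Per kilobase of exon, the scale on which different genes can be compared, SNHG29 was also the most abundant host. It had 139 ± 3.34 CPM per kilobase with BAY1217389 and 182 ± 0.679 with DMSO (SD, n = 2 each). SNHG6 had 78.2 ± 0.0903 CPM per kilobase with BAY1217389 and 84.5 ± 4.25 with DMSO. SNHG8 had 61.1 ± 0.241 CPM per kilobase with BAY1217389 and 82.0 ± 3.05 with DMSO. Within the DMSO libraries SNHG6 and SNHG8 differed by less than their spread. SNHG5 and GAS5 came next. SNHG14, whose merged exons in GENCODE cover 43324 bases, had 1.30 ± 0.0339 CPM per kilobase with BAY1217389 and 1.48 ± 0.0246 with DMSO. SNHG20, SNHG4, SNHG25, SNHG26, SNHG31, SNHG18, SNHG22 and SNHG27 lay below it in the DMSO libraries. Exon lengths are from GENCODE release 29, which may not be the annotation behind the counts.

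Of the 29 genes, 24 passed the filter on low counts and were tested together with all other genes, 16738 in total. With edgeR's quasi-likelihood test and a Benjamini-Hochberg adjusted p under 0.05, 11 of the 24 fell (45.8%), 0 rose and 13 did not pass. Over all genes tested, 13.3% fell and 14.5% rose. At an unadjusted p under 0.05, 2 hosts were higher in edgeR, 2 in limma-voom and 0 in DESeq2. DESeq2 called 8 lower and 0 higher, and limma-voom called 10 lower and 0 higher.

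The median log2 fold change of the 24 hosts was -0.18, against 0.00 for all genes tested, and it was negative in 19 of them (79.2%), against 49.7% of all genes. In 17 hosts both BAY1217389 libraries lay below both DMSO libraries, in 3 they lay above, and in 4 the groups overlapped. Among all genes 61.0% had groups that did not overlap, and 30.5% had both BAY1217389 libraries below both DMSO libraries. Changes were modest: log2 fold changes ran from -0.72 to 0.42, and 0 hosts reached a change of 1, a size that 577 genes of the whole table called by edgeR did reach. The labels name the replicates as biological but do not say how they were separated, so p-values measure the spread between these libraries, which may be partly technical.

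**Figure D2:**
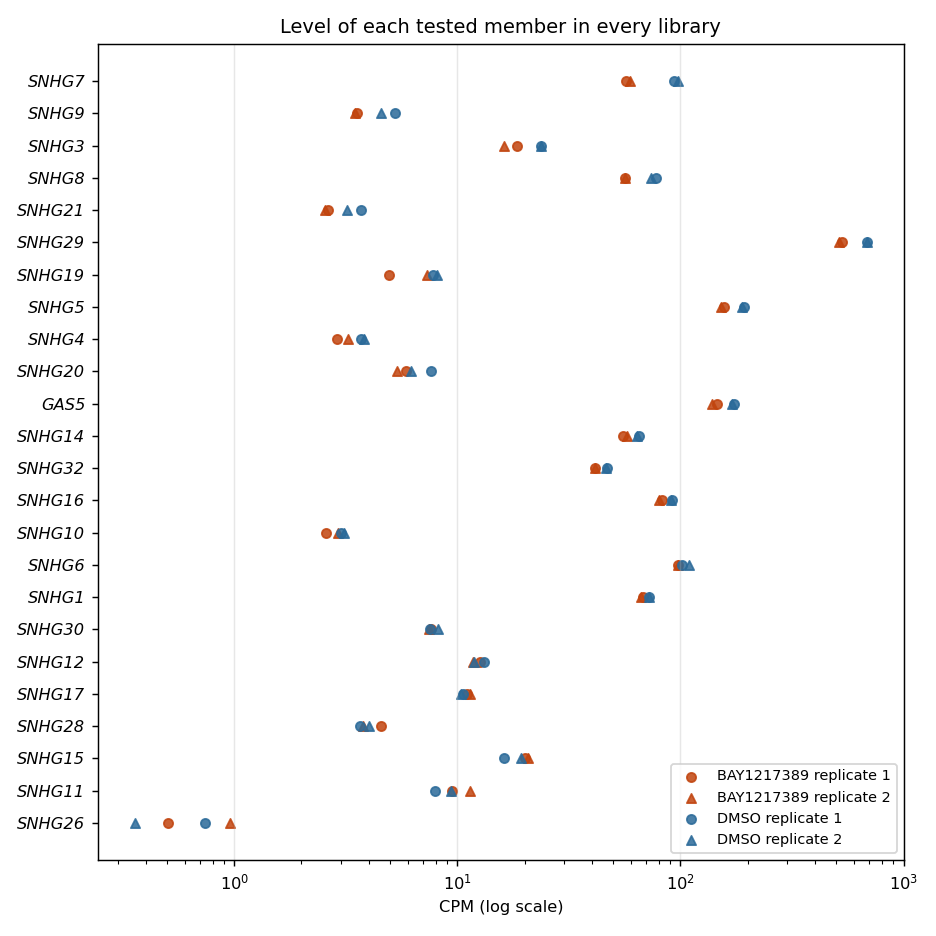
Points give the level in CPM, on a log axis, of each of the 24 tested host genes in each library, ordered from the lowest to the highest log2 fold change (BAY1217389 minus DMSO). SNHG7, at the top, has both BAY1217389 libraries near 57.9 CPM and both DMSO libraries near 95.2 CPM, while the groups overlap in SNHG12 and SNHG26.

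Calls went with the number of reads. Among the 10 hosts with a mean of at least 40 CPM, 9 fell and SNHG1 did not pass. Their median log2 fold change was -0.23. Among all 4878 genes of that level 25.4% fell, with a median of -0.02. Among the 14 hosts under 40 CPM, 2 fell (SNHG3 and SNHG9) and 12 did not pass. Their median log2 fold change was -0.11, and of the 11860 genes of that level 8.38% fell. Standard errors were 0.0258 to 0.0539 in the hosts with more reads and 0.0815 to 0.461 in the others, so a change of the typical size was not detectable in most of the others. The 40 CPM limit was chosen after the values were seen.

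The 4 lowest log2 fold changes among the hosts belonged to hosts of box H/ACA snoRNAs, led by SNHG7. SNHG7, on chromosome 9, spans 2 H/ACA snoRNAs. It had 56.7 and 59.1 CPM with BAY1217389 and 93.2 and 97.1 CPM with DMSO. The groups lay far apart, and the level was 39.1% lower (log2 fold change -0.72, SE 0.044, 95% interval -0.81 to -0.63, adjusted p = 2.24e-15, edgeR). DIPK1B, which lies on the opposite strand of the SNHG7 locus, had a log2 difference of -0.26 that did not pass (edgeR adjusted p = 0.127).

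SNHG8, host of SNORA24 printed above, had 56.5 and 56.2 CPM with BAY1217389 and 77.7 and 73.7 CPM with DMSO. Both BAY1217389 libraries were nearly equal and lay below both DMSO libraries (log2 fold change -0.43, SE 0.0464, edgeR adjusted p = 3.85e-09). SNHG3, which spans 2 H/ACA snoRNAs on chromosome 1, had 18.5 and 16.1 CPM with BAY1217389 and 23.7 and 23.8 CPM with DMSO. The groups did not overlap (log2 fold change -0.45, SE 0.0815, edgeR adjusted p = 3.80e-05). SNHG3 shares its locus and strand with RCC1, a nuclear exchange factor, whose log2 fold change was -0.07 (edgeR adjusted p = 0.183), and reads shared between overlapping genes are uncertain.

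SNHG9, a short host of 1 H/ACA snoRNA on chromosome 16, had 154 and 148 reads with BAY1217389 and 207 and 177 with DMSO. In CPM this was 3.54 and 3.46 with BAY1217389 and 5.26 and 4.52 with DMSO, with no overlap (log2 fold change -0.48, SE 0.169, edgeR adjusted p = 0.0296). Its interval of -0.83 to -0.14 was wide, and its call was lost under 5 of the 13 other settings that gave it a value. Leaving out DMSO replicate 1 gave an adjusted p of 0.231, BAY1217389 replicate 1 gave 0.116 and BAY1217389 replicate 2 gave 0.136 (edgeR).

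The remaining H/ACA hosts were not called, and some had higher values. SNHG15 had 20.1 and 20.7 CPM with BAY1217389 and 16.2 and 19.3 CPM with DMSO, without overlap. Its log2 fold change was 0.20 (95% interval 0.02 to 0.38, edgeR adjusted p = 0.0834). SNHG11 had 9.51 and 11.3 CPM with BAY1217389 and 7.95 and 9.33 CPM with DMSO, a log2 difference of 0.27 (95% interval 0.03 to 0.51, edgeR adjusted p = 0.0840). Both passed without DMSO replicate 2, where the adjusted p was 0.0134 for SNHG15 and 0.0362 for SNHG11, and with a stricter filter, where it was 0.0306 and 0.0383 (edgeR). SNHG17 had 11.0 and 11.3 CPM with BAY1217389 and 10.6 and 10.4 CPM with DMSO, a log2 difference of 0.09 with an interval of -0.12 to 0.30. SNHG4 had a log2 difference of -0.30 (edgeR adjusted p = 0.255), and it overlaps MATR3 on the same strand. In all, 4 of the 8 tested hosts with box H/ACA RNAs alone fell, with a median log2 fold change of -0.36. Over all genes tested 13.3% fell, and 25.4% of those of at least 40 CPM.

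Among hosts of box C/D snoRNAs alone, 6 of 10 tested fell, beside the same shares of all genes. Their median log2 fold change was -0.17, and a difference between the classes was not tested. The lowest value of that class was that of SNHG29. SNHG29, whose products include SNORD49A printed above, had 532 and 514 CPM with BAY1217389 and 687 and 683 CPM with DMSO. The groups lay far apart, with a level 23.6% lower (log2 fold change -0.39, SE 0.0258, 95% interval -0.44 to -0.34, adjusted p = 1.58e-14, edgeR). LRRC75A, on the opposite strand of this locus, had a log2 difference of 0.53 that did not pass (edgeR adjusted p = 0.146).

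SNHG5, host of SNORD50A and SNORD50B on chromosome 6, had 156 and 152 CPM with BAY1217389 and 194 and 189 CPM with DMSO. It was 19.3% lower, with no overlap (log2 fold change -0.31, SE 0.0343, edgeR adjusted p = 5.43e-09). SNHG16, with 3 box C/D snoRNAs on chromosome 17, had 83.0 and 79.9 CPM with BAY1217389 and 92.1 and 91.1 CPM with DMSO. It too showed no overlap (log2 fold change -0.17, SE 0.0414, edgeR adjusted p = 0.00181).

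SNHG14, host of the imprinted snoRNA clusters, had 55.5 and 57.5 CPM with BAY1217389 and 65.1 and 63.5 CPM with DMSO. The BAY1217389 libraries were both lower (log2 fold change -0.19, SE 0.0477, edgeR adjusted p = 0.00279). This gene shares its strand with SNRPN and IPW, whose log2 fold changes were 0.02 and -0.03, and overlaps UBE3A on the other strand. SNHG14 also overlaps PWAR5, so its reads cannot be assigned with certainty.

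SNHG32 had 41.5 and 41.3 CPM with BAY1217389 and 47.1 and 46.6 CPM with DMSO (log2 fold change -0.18, SE 0.0539, edgeR adjusted p = 0.0112). SNHG6 had 97.6 and 97.4 CPM with BAY1217389 and 102 and 109 CPM with DMSO. It fell by 7.44%, the smallest fall that passed (log2 fold change -0.11, SE 0.0405, edgeR adjusted p = 0.0369), and the call was lost under 8 of 14 other settings. Without DMSO replicate 2 its log2 difference was -0.06 (edgeR adjusted p = 0.497), and the call was also lost without either BAY1217389 replicate. The call of SNHG32 was lost under 3 of 14, among them without DMSO replicate 1 and without BAY1217389 replicate 2 (edgeR adjusted p = 0.0716 and 0.0554).

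SNHG1, a host of 8 box C/D snoRNAs on chromosome 11, was the host above 40 CPM that did not pass. It had 67.6 and 66.8 CPM with BAY1217389 and 72.2 and 72.3 CPM with DMSO, which do not overlap. Its log2 fold change was -0.10 (95% interval -0.19 to -0.01, edgeR adjusted p = 0.0790). SNHG19 had 4.91 and 7.29 CPM with BAY1217389 and 7.80 and 8.07 CPM with DMSO. The BAY1217389 replicates stood far apart (log2 fold change -0.38, SE 0.149, edgeR adjusted p = 0.0601), and it passed under 6 of 14 other settings. Without BAY1217389 replicate 2 the log2 fold change was -0.69 (edgeR adjusted p = 0.00539), and without BAY1217389 replicate 1 it was -0.13 (edgeR adjusted p = 0.626). SNHG30 had a log2 difference of -0.06 with an interval of -0.31 to 0.18. SNHG26 had 22 and 41 reads with BAY1217389 and 29 and 14 with DMSO, with overlapping groups and no call.

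GAS5 (growth arrest specific 5) hosts both classes, 10 box C/D snoRNAs and 1 H/ACA snoRNA, on chromosome 1. It is named for its accumulation in growth-arrested mouse cells. It had 145 and 138 CPM with BAY1217389 and 174 and 170 CPM with DMSO. All BAY1217389 values lay below all DMSO values, with a level 17.7% lower (log2 fold change -0.28, SE 0.0357, 95% interval -0.35 to -0.21, adjusted p = 9.52e-08, edgeR). ZBTB37, which overlaps GAS5 on the opposite strand, had 529 and 489 reads with BAY1217389 and 406 and 395 with DMSO, a log2 difference of 0.21 that did not pass (edgeR adjusted p = 0.135). SNHG12, the other host of both classes, had 12.6 and 11.8 CPM with BAY1217389 and 13.2 and 11.8 CPM with DMSO. Those values overlapped, and the log2 fold change was -0.04 with an interval of -0.24 to 0.16.

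The 3 tested hosts of scaRNAs, SNHG10, SNHG20 and SNHG21, did not pass, with log2 fold changes of -0.15, -0.30 and -0.41. Each had under 300 reads in every library. The edgeR adjusted p-values were 0.641 for SNHG10, 0.119 for SNHG20 and 0.139 for SNHG21. SNHG28, which spans no annotated small RNA, had a log2 difference of 0.11 with an interval of -0.24 to 0.47. The 5 hosts left out by the filter had at most 7 reads in a library: SNHG22 had 0 in all 4, and SNHG18, SNHG25, SNHG27 and SNHG31 had few. For these 5 a difference was not detectable at this depth.

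**Figure D3:**
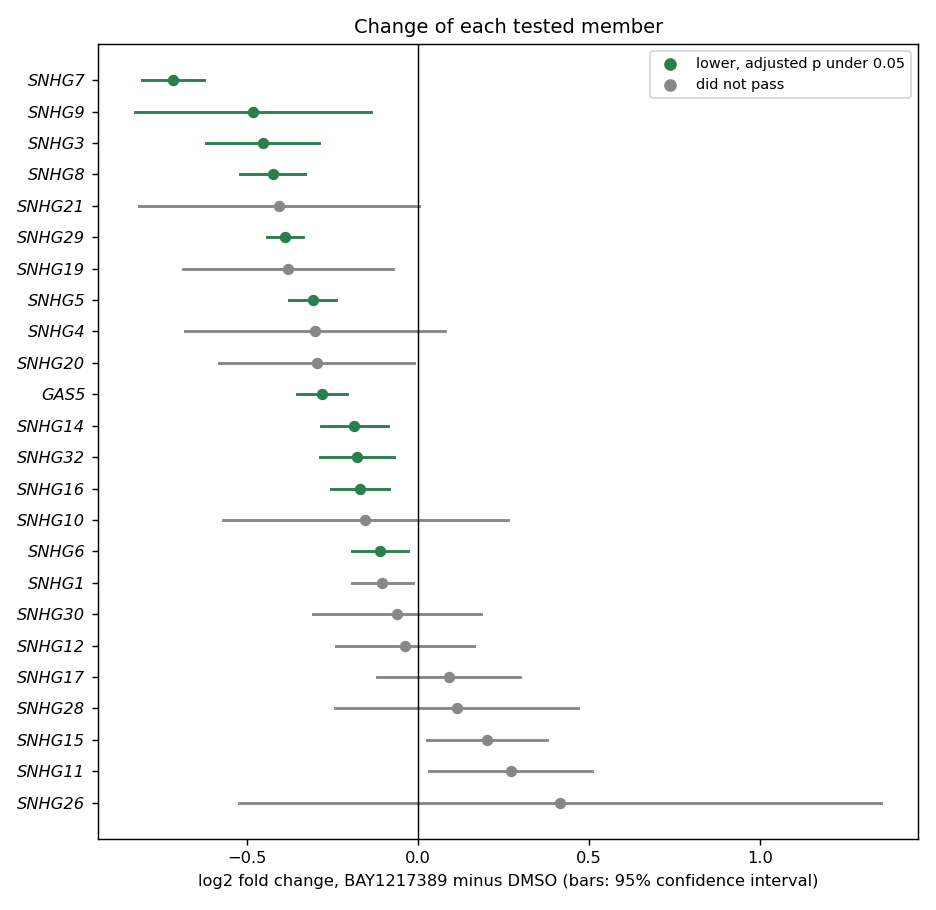
Points give the log2 fold change (BAY1217389 minus DMSO) of each of the 24 tested host genes with its 95% confidence interval as a bar. Green marks the 11 that fell by edgeR, from SNHG7 at -0.72 to SNHG6 at -0.11, and grey the 13 that did not pass, whose bars are mostly the longer ones.

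The snoRNAs themselves are short, without a poly(A) tail, and this library type is not made to measure them. The 142 small RNA rows inside the hosts held 433 and 394 reads with BAY1217389 and 383 and 343 reads with DMSO, in all. Scaled, that was 9.94 and 9.21 CPM with BAY1217389 and 9.73 and 8.76 CPM with DMSO. The scaled sums overlapped, and no row had more than 32 reads in a library. Only 12 rows passed the filter and 0 were called by edgeR, DESeq2 or limma-voom. At an unadjusted p under 0.05 edgeR had 1, limma-voom 1 and DESeq2 0.

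GAS5 gave more of these reads than any other host. Its 11 rows summed to 3.58 and 3.37 CPM with BAY1217389 and 3.05 and 2.40 CPM with DMSO, higher in both BAY1217389 libraries while the count of GAS5 itself was lower. That is 2.47 and 2.43 reads on snoRNA rows per 100 host reads with BAY1217389 and 1.75 and 1.41 with DMSO. This ratio was not tested, nor was the source of these reads, whether snoRNAs or unspliced host RNA. With 2 libraries against 2, an exact two-sided permutation test gives no p under 0.333. SNORD76 had 30 and 25 reads with BAY1217389 and 11 and 11 with DMSO, and its log2 fold change of 1.18 (SE 0.512) did not pass (edgeR adjusted p = 0.0847). SNORD81 had 14 and 14 reads with BAY1217389 and 5 and 9 with DMSO, and its log2 fold change was 0.85 (edgeR adjusted p = 0.389). The other tested rows, SNORD47, SNORD79 and SNORD80, had log2 fold changes of 0.21, -0.06 and 0.17. For SNHG1 the ratio was 2.65 and 2.41 per 100 host reads with BAY1217389 and 2.64 and 2.30 with DMSO, and the groups overlapped. For SNHG29 it was 0.151 and 0.127 with BAY1217389 and 0.141 and 0.157 with DMSO, also overlapping. These 3 hosts were chosen after the values were seen.

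**Figure D4:**
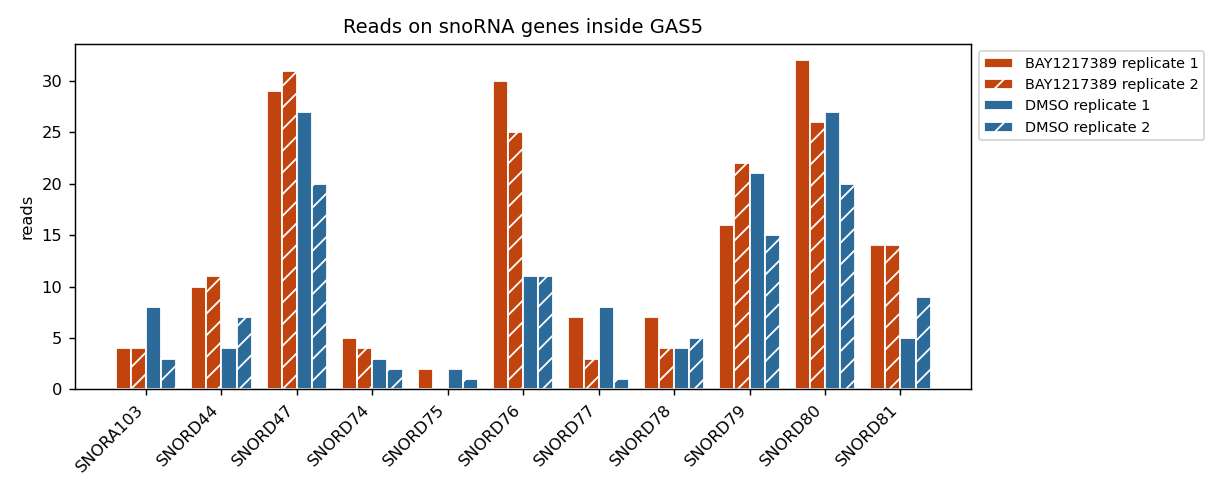
Bars give raw reads on each of the 11 snoRNA genes inside GAS5 in the BAY1217389 libraries (orange) and the DMSO libraries (blue), with hatching for replicate 2. SNORD76 shows 30 and 25 reads with BAY1217389 and 11 and 11 with DMSO, the widest gap between the groups.

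The starts of the hosts were read from the RefSeq promoter table (GRCh38.p14), which held 25 of the 29. A TOP-like start was counted where the annotated first base is C and is followed by at least 4 bases that are C or T. Such a start stood at 6 of the 25 hosts (24%), at 42 of 62 ribosomal protein genes (67.7%), at 8 of 10 other TOP genes (80%) and at 1104 of all 27305 promoters (4.04%). The motif TATAA, searched on the gene's strand within 40 bases before the start, stood at 5 of 25 hosts (20%) and at 4.67% of all promoters. It stood at 6 of 62 ribosomal protein genes (9.68%) and at 4 of 10 other TOP genes (40%). Both stood together at SNHG19, SNHG5 and SNHG12, 3 of 25 hosts (12%), against 0.114% of all promoters. The pair also stood at 5 of 62 ribosomal protein genes (8.06%) and at 4 of 10 other TOP genes (40%). The E-box CACGTG, which reads the same on both strands, was found in the 300-base promoter of 2 hosts, SNHG7 and SNHG30 (8%), and in 7.43% of all.

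The bases from 40 before to 20 from the start are shown for the hosts that carry either motif and were tested, because these cover the largest fall (SNHG7), 3 further hosts that fell and 3 that did not pass. Capitals mark TATAA and the pyrimidine run at the start. SNHG7 lies at chr9:136728165-136728224 on the minus strand and SNHG8 at chr4:118278722-118278781 on the plus strand. SNHG19 lies at chr16:2155339-2155398 and SNHG5 at chr6:85678714-85678773, both on the minus strand. SNHG4 lies at chr5:139274061-139274120 and SNHG32 at chr6:31834876-31834935, both on the plus strand, and SNHG12 at chr1:28581854-28581913 on the minus strand.
SNHG7: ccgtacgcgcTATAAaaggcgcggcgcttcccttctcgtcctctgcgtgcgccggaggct
SNHG8: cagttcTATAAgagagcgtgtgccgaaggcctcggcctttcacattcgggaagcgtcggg
SNHG19: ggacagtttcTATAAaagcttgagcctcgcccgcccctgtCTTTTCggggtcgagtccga
SNHG5: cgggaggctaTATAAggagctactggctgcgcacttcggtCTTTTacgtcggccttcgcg
SNHG4: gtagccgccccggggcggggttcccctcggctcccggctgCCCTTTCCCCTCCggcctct
SNHG32: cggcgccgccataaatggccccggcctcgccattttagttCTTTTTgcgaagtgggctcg
SNHG12: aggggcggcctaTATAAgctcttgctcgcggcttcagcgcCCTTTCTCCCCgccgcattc

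Of the 5 tested hosts with a TOP-like start, SNHG5 and SNHG32 fell, beside 45.8% of all tested hosts and 13.3% of all genes tested. SNHG19, SNHG4 and SNHG12 did not pass, and all lay under 40 CPM. At their RefSeq starts SNHG7 and SNHG8 have TATAA without a TOP-like run of pyrimidines. A start site is only as good as its annotation. Over all GENCODE release 29 transcripts, 14 of the 29 hosts (48.3%) had at least 1 transcript with a TOP-like start, as did 65 of 78 ribosomal protein genes (83.3%). Those with one included GAS5 with 6 of 29 transcripts and SNHG29 with 6 of 30, while SNHG7 had 0 of 4 and SNHG32 0 of 11, unlike its RefSeq start. The share of genes with at least 1 such transcript depends on how many are annotated, and it was not taken over all genes. By transcript the share was 12.9% for the hosts, 20.4% for ribosomal protein genes and 2.41% for all.

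Genes that share the TOP start or the snoRNA cargo were set beside the hosts. Beside every count that follows stand the shares over all genes tested, 14.5% higher and 13.3% lower, and over genes of at least 40 CPM, 22.1% higher and 25.4% lower (edgeR). Of 78 ribosomal protein genes 73 fell, 0 rose and 5 did not pass, and their median log2 difference was -0.19. Those with the smallest p-values were RPL3 (log2 fold change -0.49), RPS2 (-0.36), RPS6 (-0.37) and RPL4 (-0.33). Of 15 other TOP genes, which encode translation factors and some other proteins, all 15 fell, with a median of -0.27. EIF4B, a helper of the helicase that opens mRNA for ribosomes, had 862 ± 4.29 CPM with BAY1217389 and 1350 ± 0.317 with DMSO (SD, n = 2 each; log2 fold change -0.65, SE 0.0224, edgeR adjusted p = 7.88e-23). PABPC1, the cytoplasmic poly(A)-binding protein, had a log2 difference of -0.34, the elongation factor EEF1A1 one of -0.27 and EEF1B2 one of -0.36. In both lists 0 genes were higher at an unadjusted p under 0.05 with edgeR, DESeq2 or limma-voom.

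Of 26 protein-coding snoRNA hosts outside the ribosomal proteins, 10 fell, 0 rose and 16 did not pass, beside 25.4% lower among all genes of at least 40 CPM. Their median log2 fold change was -0.07. Those that fell most clearly were HSPA8, a heat shock chaperone (log2 fold change -0.34), EEF1B2 (-0.36), SLC25A3, the mitochondrial phosphate carrier (-0.31), and EEF2 (-0.41). EEF1B2 and EEF2 are translation elongation factors and also stand among the other TOP genes. This list shares further genes with the other TOP genes and with the snoRNP proteins below, so the lists are not independent. In this list too, 0 genes were higher at an unadjusted p under 0.05 with edgeR, DESeq2 or limma-voom.

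Among 6 further noncoding hosts, 2 fell, 0 rose by edgeR and 4 did not pass. Without DMSO replicate 1 or BAY1217389 replicate 1, 1 fell. DANCR had 10.8 and 9.75 CPM with BAY1217389 and 16.6 and 15.5 CPM with DMSO, with no overlap (log2 fold change -0.64, SE 0.0974, edgeR adjusted p = 2.74e-06). EPB41L4A-AS1 had 17.0 ± 0.608 CPM with BAY1217389 and 21.1 ± 0.933 with DMSO (SD, n = 2 each; log2 fold change -0.31, edgeR adjusted p = 0.00353). ZFAS1, at 113 ± 3.86 CPM with BAY1217389 and 114 ± 3.15 with DMSO, had a log2 difference of -0.01 (SE 0.0389, edgeR adjusted p = 0.883). The read-through SENP3-EIF4A1, whose reads cannot be told from those of its neighbours, was higher at an unadjusted p under 0.05 and was called by DESeq2 and limma-voom but not by edgeR.

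Factors that act on the snoRNAs or on the spliced hosts were called in both directions. Of 18 tested snoRNP proteins and assembly factors, 2 rose and 5 fell, beside 27.8% called in either direction over all genes, with a median log2 fold change of -0.01. FBL, the box C/D methyltransferase, had 79.7 ± 1.28 CPM with BAY1217389 and 94.0 ± 4.14 with DMSO (SD, n = 2 each; log2 fold change -0.24, edgeR adjusted p = 3.47e-05). NHP2, of the H/ACA particle, also had a log2 difference of -0.24, and PIH1D1, an assembly factor, one of -0.14, while NOP10, of the same particle, was higher at 73.1 ± 1.46 CPM with BAY1217389 and 64.9 ± 0.343 with DMSO (log2 fold change 0.17, edgeR adjusted p = 0.00355). With DESeq2, 1 rose and 2 fell. With any 1 library left out 3 fell, and without DMSO replicate 2, BAY1217389 replicate 1 or BAY1217389 replicate 2, 1 rose.

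Of 17 nonsense-mediated decay factors, 4 rose and 2 fell, beside 14.5% higher and 13.3% lower over all genes, with a median of -0.02. SMG1, the kinase that phosphorylates UPF1, had 206 and 196 CPM with BAY1217389 and 151 and 148 CPM with DMSO, with no overlap (log2 fold change 0.43, SE 0.0349, edgeR adjusted p = 3.49e-12). UPF1 itself had a log2 difference of -0.05 (edgeR adjusted p = 0.489). SMG5, which binds phosphorylated UPF1, rose by 0.17 on the log2 scale, and UPF3A fell by 0.26. Of 15 genes with transcripts known to be degraded by this pathway, 5 rose and 3 fell, beside the same shares of all genes. Their median was 0.03. Counts are per gene, so degraded forms of these RNAs were not told apart from other forms. Those with the smallest p-values were ATF3, a stress-induced transcription factor (log2 fold change 0.89), ATF4 (-0.17), ASNS (-0.17) and CDKN1A (0.11). Without DMSO replicate 1, 2 decay factors rose and 1 fell, and without DMSO replicate 2 or BAY1217389 replicate 1, 3 decay targets rose.

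**Figure D5:**
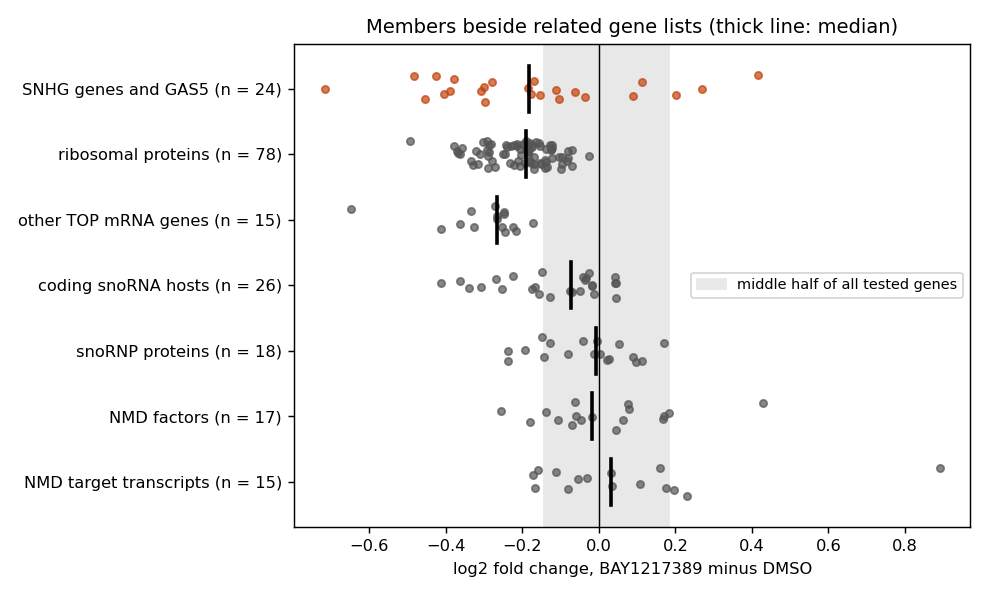
Points give the log2 fold change (BAY1217389 minus DMSO) of each tested gene in the hosts and in 6 related lists, with the median as a thick line and the range between the quartiles of all tested genes, -0.143 to 0.183, as the grey band. The medians are -0.18 for the hosts, -0.19 for the ribosomal proteins and -0.27 for the other TOP genes, while those of the snoRNP proteins, decay factors and decay targets lie near 0.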

How the data were processed

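Poly(A) RNA of 4 H1944 libraries was sequenced after a stranded mRNA kit, per the labels' protocols. Per the file headers, the tables that the authors deposited give each gene's symbol, RefSeq identifiers and raw read count. The submitters' processing notes name hg18, but the identifiers include later ones, so the annotation is uncertain. The aligner, the counter and any use of strand in counting are not named in the sources used here. A further 4 per-sample columns (16 when repeats are counted) match no sample and were not used.

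Counts were analysed with edgeR 4.0.16 in R 4.3.3. The function filterByExpr (minimum count 10, minimum total 15) left out 29689 rows and kept 16738 genes, and libraries were scaled by TMM. A robust quasi-likelihood fit on treatment alone was tested two-sided, with Benjamini-Hochberg adjustment over all genes tested and a threshold of 0.05. It had 2 residual and 31.1 prior degrees of freedom and a biological coefficient of variation of 3.99%. Fold changes are log2, BAY1217389 minus DMSO. The alternatives were DESeq2 1.42.0, limma-voom (limma 3.58.1), other scalings and filters, thinned libraries, each library left out and the replicate number as a block. Replicate libraries differed by more than counting error on average over genes (mean chi-square per gene 3.93 with BAY1217389 and 3.74 with DMSO). That average does not tell how the replicates were made. The script was tested on simulated data.

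Every host gene is given whatever its value, with up to 4 genes of smallest p in each further list and overlapping genes. TTK, UPF1, ZFAS1, EPB41L4A-AS1, LINC00888, some cell type markers and some small RNAs inside hosts are given as well. A gene that the rule for the further lists names is not reported here. The members and lists were chosen with earlier results of these data known. Host positions, promoters and snoRNA positions come from RefSeq, and exon lengths and transcripts from GENCODE release 29. The deposited files give no coordinates. The labels name no molecular identifiers, so reads may repeat a molecule and counts carry more than counting error.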

Additional observations from a re-analysis of the deposited data

How the results depend on the processing

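In 8 hosts (GAS5, SNHG3, SNHG5, SNHG7, SNHG8, SNHG14, SNHG16 and SNHG29) the fall passed under all 14 other settings, and no called host changed sign. The number of hosts lower was 8 to 13, and 9 to 11 with a library left out, while 2 were higher with a stricter filter and 0 to 2 with a library left out. SNHG6, SNHG9 and SNHG32 lost their call under some settings. SNHG19 gained a call under 6 settings. SNHG1 passed with library size only (adjusted p = 0.0485, edgeR) and SNHG20 without DMSO replicate 2 (adjusted p = 0.0424, edgeR). DESeq2 called 1400 genes lower in the whole table, against 2232 with edgeR. Without SNHG29 the log2 difference of the summed share was -0.268, against -0.32 with it.

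In the further lists, 1 coding host was higher with a stricter filter. Of the other noncoding hosts 1 was higher with DESeq2, limma-voom, non-robust dispersions and the replicate block, 0 to 1 were higher and 1 to 2 lower with a library left out. Of the snoRNP proteins 3 were lower with no filter, 2 with DESeq2 and 3 with any library left out, and 1 was higher with no filter, library size only, upper quartile, DESeq2, limma-voom, non-robust dispersions or thinning, 1 to 2 with a library left out. Of the decay factors 2 to 3 were higher and 1 to 3 lower with a library left out. Of the decay targets 3 were higher with DESeq2 and 3 to 4 with a library left out. The cause of these shifts was not tested.

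The replicate block gave 12 hosts lower, SNHG19 being added (adjusted p = 0.0362, edgeR). The labels do not say that the numbers pair the samples, and deviations of same-numbered libraries correlated at 0.044 across 16738 genes. Depth limits the 14 hosts under 40 CPM, whose standard errors reached 0.461.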

Other observations

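LINC00888, which RefSeq now calls SNHG33 and which the symbol rule does not take, had 594 and 573 reads with BAY1217389 and 548 and 538 with DMSO, a log2 fold change of -0.03 (SE 0.0928, adjusted p = 0.842, edgeR).

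Other snoRNAs inside hosts also had few reads. SNORA16A in SNHG12 had 9 and 11 reads with BAY1217389 and 4 and 2 with DMSO. SNORD22 in SNHG1 had 25 and 25 with BAY1217389 and 28 and 22 with DMSO. SNORD104, inside SNHG25, had 23 and 16 reads with BAY1217389 and 26 and 23 with DMSO, more than the 6 and 7 reads with BAY1217389 and 5 and 5 with DMSO of SNHG25 itself.

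PWAR5, which overlaps SNHG14, fell with a log2 fold change of -0.63 (adjusted p = 0.0203, edgeR). MATR3, which overlaps SNHG4 on the same strand, fell with a log2 fold change of -0.11 (adjusted p = 0.00713, edgeR).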
